A study of Rattus norvegicus with 16 samples.

Results

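The serpins are a family of proteins most of which block serine proteases, and the liver secretes many of them into plasma. On the arrays used here, 31 serpin genes of clades A to I had at least 1 row that carries their symbol and no other, out of 13215 genes with such a row in a table of 19418 rows, and each gene was read from its brightest row. Of these, 12 were classed as hepatocyte plasma serpins from textbook knowledge of liver secretion (Serpina1, Serpina3n, Serpina4, Serpina6, Serpina7, Serpina10, Serpina11, Serpinc1, Serpind1, Serpinf1, Serpinf2 and Serping1), and the other 19 as other serpins. A further 3 genes of the plasma list had no row of their own and were not analysed here. Liver RNA came from 16 male Sprague Dawley rats, 1 array per animal, in 4 groups of 4. Fed rats were compared with rats fasted into phase 2 (P2), in which fat fuels the body and protein is spared, with rats fasted into phase 3 (P3), in which protein breakdown rises, and with rats that reached phase 3 and then ate again for 2 days (P3r2). All rats were of 1 strain and sex, and neither their ages nor the lengths of the fasts are given in the sources used here. Serpin levels across these groups show how the protease inhibitors and hormone carriers made by the liver differ between the phases of a fast and after food returns.

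An inhibitory serpin works as a bait. The target protease cuts an exposed loop of the serpin, the serpin changes shape, and the protease is left trapped in a covalent complex that receptors on hepatocytes clear from plasma. Some members have lost this activity: Serpina6, corticosteroid-binding globulin, and Serpina7, thyroxine-binding globulin, carry hormones, and Serpinh1 is a collagen chaperone of the endoplasmic reticulum. Clade B serpins mostly stay inside cells and guard them against their own or foreign proteases.

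Values are log2 signals, so a difference of 1 unit is a 2-fold change. Differences are given as the log2 fold change ± its standard error from a model with 4 arrays in each group, and "called" means an adjusted p below 0.05 in limma over 18885 rows. Array signals flatten at the bright end, so the changes of the brightest serpins may be understated, and levels of different genes are not compared. Medians of the arrays lay at 4.34 to 4.46, and the correlation of 2 arrays ranged from 0.966 to 0.992 in the same group and from 0.912 to 0.985 in different groups. Signals spread least in the arrays fed 2, P2 4 and P3 3 (SD 2.12, 2.14 and 2.18, against 2.21 to 2.37 in the other arrays). Hepatocyte markers were bright in every group, with array means over 6 measured genes of 12.70 to 12.90 in fed and 13.01 to 13.08 in P3 livers. Against fed, 3 of these markers rose in P3 (Cps1, Ass1 and Tat) and 1 fell (Ttr), while Alb and Hpx were not called. Of all rows 11.3% rose and 8.06% fell, and of the rows above the median signal 20.8% and 14.5%. In whole liver, fewer cells of a type and less RNA per cell cannot be told apart.

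The serpin promoters were examined for short motifs of factors that act on liver genes. RefSeq promoter sequences of assembly GRCr8 matched 24 of the 31 serpins, with 25 start sites, and the 250 bases before each start were searched on both strands. No entry was matched for Serpina6, Serpina10, Serpinb12, Serpinb6el1, Serpinb8, Serpind1 and Serping1. GTTAAT, a part of the motif of the liver factor HNF1, lay in the windows of Serpina4 and Serpina7 and in 6.5% of all 33469 promoters. TTCNNNGAA, the motif of STAT factors, lay in those of Serpina11, Serpina3l and Serpina3n and in 7.7% of all. TGTTCT, a part of the motif of the glucocorticoid receptor, lay in those of Serpina3l, Serpinb10, Serpinb2 and Serpinb6a and in 17.5% of all. In Serpina3l 1 such match overlapped the STAT motif. A match is a run of letters and does not show that a factor binds. The windows of 4 genes are printed 5′ to 3′ on the strand of the gene, with the motif in capitals: Serpina7 and Serpina4, whose signals took different courses in P2, and the neighbours Serpina3l and Serpina3n, which share the STAT motif.
Serpina7 (chrX:107457682-107457931, minus strand, GTTAAT from base -38): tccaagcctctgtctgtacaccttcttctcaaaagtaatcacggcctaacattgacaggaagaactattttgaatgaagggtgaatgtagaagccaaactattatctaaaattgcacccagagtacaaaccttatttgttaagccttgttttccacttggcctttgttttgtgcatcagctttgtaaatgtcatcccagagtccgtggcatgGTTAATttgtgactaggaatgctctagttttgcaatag
Serpina4 (chr6:128764532-128764781, plus strand, GTTAAT from base -77): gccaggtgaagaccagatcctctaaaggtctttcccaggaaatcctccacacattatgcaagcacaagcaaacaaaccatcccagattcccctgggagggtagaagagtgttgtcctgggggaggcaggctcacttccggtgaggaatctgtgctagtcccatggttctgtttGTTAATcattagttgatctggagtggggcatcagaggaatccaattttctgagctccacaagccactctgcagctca
Serpina3l (chr6:129062956-129063205, plus strand, TTCTGAGAA from base -129): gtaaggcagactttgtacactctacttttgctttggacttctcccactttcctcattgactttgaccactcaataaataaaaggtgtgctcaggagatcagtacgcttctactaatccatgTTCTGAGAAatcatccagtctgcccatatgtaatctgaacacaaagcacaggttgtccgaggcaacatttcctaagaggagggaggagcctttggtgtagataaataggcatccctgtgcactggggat
Serpina3n (chr6:129088142-129088391, plus strand, TTCCCAGAA from base -123): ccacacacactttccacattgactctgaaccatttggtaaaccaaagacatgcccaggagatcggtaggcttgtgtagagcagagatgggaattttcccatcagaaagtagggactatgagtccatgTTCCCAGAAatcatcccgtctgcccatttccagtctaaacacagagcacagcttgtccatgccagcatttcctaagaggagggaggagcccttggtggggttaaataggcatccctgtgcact

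The windows of Serpina3l and Serpina3n had 174 identical bases of 250 when aligned (69.6%), against 137 to 148 for the other pairs compared among Serpina3l, Serpina3n, Serpina4 and Serpina11. Near-identical copies of the Serpina3 genes can share array probes, so the rows of Serpina3l and Serpina3n may each carry signal of relatives.

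At phase 2, 28 of the 31 serpins did not pass the test against fed livers, and the 3 that did were plasma serpins that went in different directions. Serpina7 and Serpina10 rose and Serpina6 fell, and none of the other 19 serpins was called. Among all rows, 6.13% were called higher and 6.58% lower, and among the 9442 brighter rows, those above the median row signal, 9.36% and 12.4%. All 12 plasma serpins are among the brighter rows. The count of 3 in 31 is therefore near the background of the array. The median log2 fold change was 0.11 over the plasma serpins and 0.13 over the others, beside 0.05 over all rows.

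In phase 3 livers 8 serpins were lower than in fed livers, 6 of them plasma serpins, and 1 was higher. Among all rows 8.06% were called lower and 11.3% higher, and in the brighter rows 14.5% and 20.8%. Of the 12 plasma serpins, 6 fell and 0 rose: Serpina6, Serpinf1, Serpinf2, Serpina10, Serpina4 and Serpina11. Among the other 19, Serpinh1 and Serpinb9 fell and Serpinb6a rose. The median was -1.04 over the plasma serpins and -0.01 over the others, beside 0.03 over all rows and 0.07 over the brighter rows. Brightness differs between the classes, since 15 of the other serpins lay among the dimmer rows. The 4 other serpins in the brighter rows (Serpina3l, Serpinb6a, Serpinb9 and Serpinh1) had a median of -1.06.

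Set against phase 2, phase 3 livers were lower in 10 serpins and higher in 0, where all rows gave 8.53% lower and 13.5% higher and the brighter rows 13.7% and 25.1%. The 10 were 8 plasma serpins (Serpina10, Serpina11, Serpina4, Serpina6, Serpina7, Serpinc1, Serpinf1 and Serpinf2) with Serpina3l and Serpinb9. The plasma serpins had a median of -1.19 and the others of -0.09, beside -0.03 over all rows. The 4 other serpins in the brighter rows had a median of -1.09, beside 0.08 over all brighter rows. This comparison shares its P3 arrays with that against fed, so the counts are not independent of each other.

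**Figure D1:**
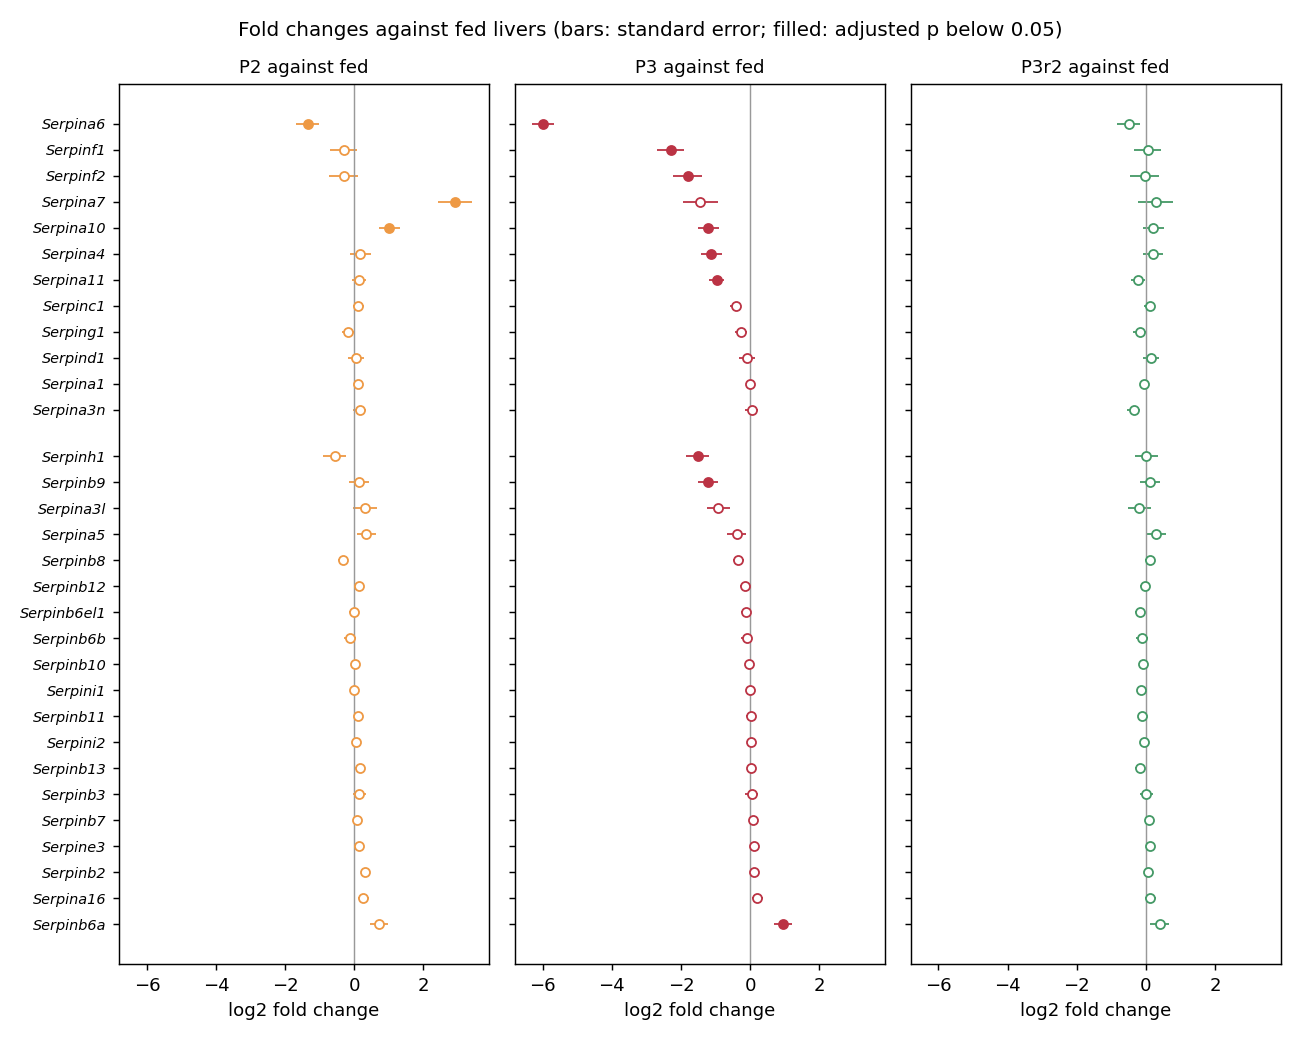
Log2 fold change of each serpin against fed livers (x axis, 1 panel per comparison, bars for the standard error, 4 arrays in each group), with the 12 plasma serpins above and the 19 others below; filled points were called at an adjusted p below 0.05. In the P3 panel 6 plasma serpins are filled to the left of 0, led by Serpina6 at -5.99, and in the P3r2 panel no point is filled.

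Of the 31 serpins, Serpina6 had the difference of greatest size in P3 against fed, in P3 against P2 and in P3r2 against P3, and Serpina7 in P2 against fed. Serpina6 (transcript cluster 7309968) binds glucocorticoids in plasma and limits how much of them is free. Its log2 signal was 11.35, 10.46, 11.28 and 11.03 in the 4 fed arrays and 9.14, 9.95, 10.31 and 9.30 in P2. It was 5.35, 4.54, 4.33 and 5.93 in P3 and 10.43, 10.40, 10.79 and 10.48 in P3r2. All P2 arrays lay below all fed arrays, and all P3 arrays lay far below every other array. The signal fell by 1.35 ± 0.33 in P2 (2.55-fold, limma adjusted p = 0.016) and was 5.99 ± 0.33 log2 units under fed in P3, a 63.6-fold drop (adjusted p = 7.3e-09). Between P2 and P3 the difference was -4.64 ± 0.33 (24.9-fold, adjusted p = 2.4e-07). The P3 signals lay near the median row signal of 4.39 and were not shown to be above background, so folds of Serpina6 against P3 are ratios of measured signals and may understate the change. The call at P2 was lost without P2 4 (-1.23, adjusted p = 0.056), while the P3 value stayed between -6.29 and -5.76 with single arrays left out.

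Serpina7 (transcript cluster 7383799), a carrier of thyroxine in plasma, took the opposite course in P2. Its signal was 5.71, 4.68, 4.50 and 6.36 in fed and 7.29, 8.53, 7.64 and 9.44 in P2 livers. It was 3.23, 3.84, 4.50 and 3.93 in P3 and 5.19, 6.32, 6.02 and 4.83 in P3r2. All P2 arrays were above every array of the other groups, and the highest P3 array stood at the level of the lowest fed array. Serpina7 rose by 2.91 ± 0.50 in P2, a 7.52-fold change (limma adjusted p = 0.0022), and was 4.35 ± 0.50 lower in P3 than in P2 (20.3-fold, log2 change -4.35, adjusted p = 1.7e-05). Its P3 signals were in the range of the 15 dimmer serpins, where a signal may be background, so this fold may understate the change too. Against fed, the P3 difference of -1.44 ± 0.50 was not called (adjusted p = 0.056, 95% interval -2.49 to -0.38). It was called after quantile normalization (adjusted p = 0.046), with array weights (-1.71, adjusted p = 0.014), over the brighter rows (adjusted p = 0.028), without fed 2 (-1.65, adjusted p = 0.044), without fed 3 (-1.71, adjusted p = 0.036), without P3 3 (-1.64, adjusted p = 0.046) and without fed 2, P2 4 and P3 3 together (-1.86, adjusted p = 0.017).

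**Figure D2:**
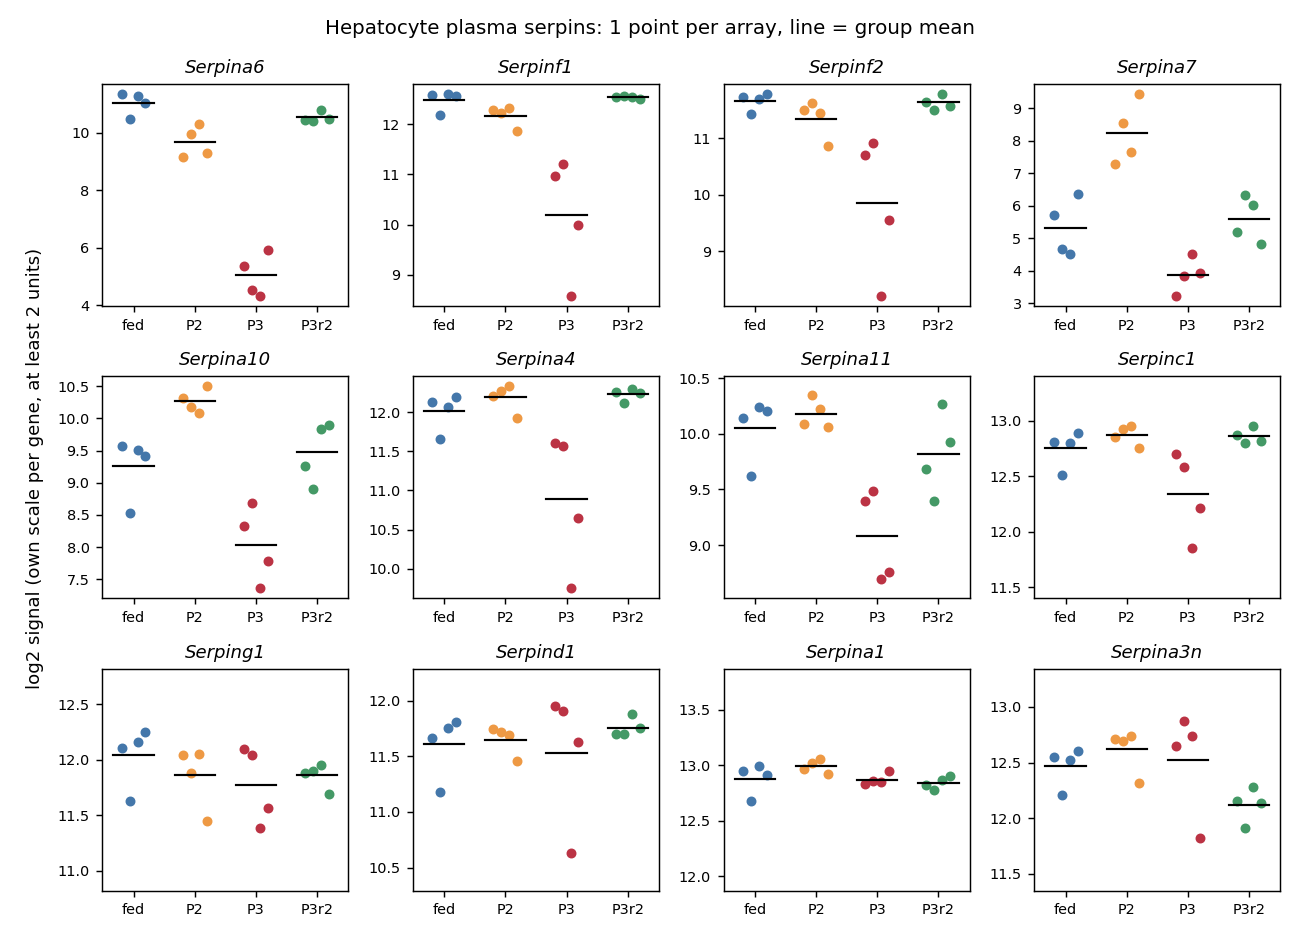
Log2 signal (y axis, own scale for each gene, spanning at least 2 units) of the 12 plasma serpins in the 4 groups (x axis), with 1 point per array and a line at the group mean. Serpina6 drops from a fed mean of 11.03 to a P3 mean of 5.04 and stands at 10.53 after re-feeding, Serpina7 peaks in P2 at 8.22, and Serpina1 stays between 12.68 and 13.06 in all 16 arrays.

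Serpina10 (transcript cluster 7309966) is the protein Z-dependent protease inhibitor, which blocks activated clotting factor X. Its signal was 9.57, 8.53, 9.51 and 9.41 in fed livers, 10.31, 10.17, 10.09 and 10.50 in P2, 8.33, 8.68, 7.36 and 7.79 in P3 and 9.26, 8.90, 9.84 and 9.90 in P3r2. The P2 arrays were above all others, and the P3 arrays were below the rest except that P3 2 exceeded fed 2. Serpina10 rose by 1.01 ± 0.30 in P2 (limma adjusted p = 0.037) and was lower by 1.21 ± 0.30 log2 units in P3 than in fed (-1.21, adjusted p = 0.0076) and by 2.22 ± 0.30 in P3 than in P2 (-2.22, adjusted p = 6.4e-05). The rise in P2 was not called without fed 2 (0.77, adjusted p = 0.087), fed 4 (1.06, 0.069), P2 1 (0.99, 0.065), P2 2 (1.04, 0.067) or P2 4 (0.93, 0.1), nor with array weights (0.78, 0.058) or without the 3 arrays of narrow spread (0.69, 0.11).

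Serpinc1 is antithrombin, the chief inhibitor of thrombin. Its signal was 12.81, 12.51, 12.80 and 12.89 in fed, 12.85, 12.92, 12.95 and 12.75 in P2, and 12.70, 12.58, 11.85 and 12.21 in P3. The P3 arrays were below all P2 arrays but overlapped the fed arrays through fed 2. Serpinc1 fell by 0.53 ± 0.15 between P2 and P3 (limma adjusted p = 0.018), a call lost without P3 4 (-0.49, adjusted p = 0.057) and in a fit of the 2 groups alone (adjusted p = 0.083). Against fed its difference in P3 was -0.42 ± 0.15 (adjusted p = 0.071), which was called after quantile normalization (-0.54, 0.0039), over the brighter rows (0.046) and without fed 2 (-0.50, 0.04), P3 1 (-0.54, 0.019) or P3 2 (-0.50, 0.042). Serpind1, heparin cofactor II, which also blocks thrombin, was not called in any comparison, and its P3 difference from fed was -0.08 ± 0.23 (95% interval -0.57 to 0.42).

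The genes of Serpinf1 and Serpinf2 follow each other in the RefSeq gene order with no other protein-coding gene between them, and both fell in P3. Serpinf2 is alpha-2-antiplasmin, which blocks the clot-dissolving protease plasmin, and Serpinf1 is pigment epithelium-derived factor, a secreted serpin that does not inhibit proteases. Serpinf1 (transcript cluster 7079825) read 12.59, 12.19, 12.61 and 12.56 in fed livers, 12.29, 12.22, 12.32 and 11.87 in P2, 10.97, 11.20, 8.58 and 9.99 in P3 and 12.55, 12.56, 12.55 and 12.51 in P3r2. Serpinf2 (transcript cluster 7079828) read 11.73, 11.43, 11.70 and 11.79 in fed livers, 11.50, 11.62, 11.45 and 10.86 in P2, 10.71, 10.92, 8.21 and 9.55 in P3 and 11.65, 11.51, 11.79 and 11.58 in P3r2. For both genes the P3 arrays came in the same order, P3 3 lowest and P3 2 highest, and all were below the fed arrays. In Serpinf2 the array P3 2 exceeded P2 4, so that P2 and P3 overlapped. Serpinf1 fell by 2.30 ± 0.39 in P3 (4.93-fold, limma adjusted p = 4.6e-04) and Serpinf2 fell by 1.81 ± 0.42 (3.52-fold, adjusted p = 0.005). Against P2 the differences were -1.99 ± 0.39 (adjusted p = 0.0016) and -1.51 ± 0.42 (adjusted p = 0.016), and that of Serpinf2 was -0.96 without P3 3 and was not called in a fit of the 2 groups alone (adjusted p = 0.092). With single arrays left out the fall against fed lay between -2.64 and -1.77 for Serpinf1 and between -2.17 and -1.27 for Serpinf2. In P2 neither was called (-0.31 ± 0.39 and -0.31 ± 0.42).

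Serpina4 and Serpina11 had lower P3 signals by about 1 log2 unit. Serpina4 (transcript cluster 7301258), kallistatin, inhibits tissue kallikrein. Its signal was 12.13, 11.66, 12.06 and 12.19 in fed livers, 12.21, 12.27, 12.33 and 11.93 in P2, 11.61, 11.57, 9.75 and 10.65 in P3 and 12.26, 12.12, 12.29 and 12.24 in P3r2. The P3 arrays P3 1 and P3 2 lay just under the lowest fed array, and P3 3 and P3 4 lay well below. Serpina4 fell by 1.12 ± 0.30 in P3 (limma adjusted p = 0.015) and by 1.29 ± 0.30 from P2 to P3 (adjusted p = 0.0054). Against fed its fall was -0.73 without P3 3, was called with each array left out (adjusted p at most 0.048) and was not called in a fit of the 2 groups alone (adjusted p = 0.096).

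Serpina11 (transcript cluster 7310005) read 10.14, 9.62, 10.24 and 10.21 in fed livers, 10.09, 10.35, 10.22 and 10.06 in P2, 9.40, 9.49, 8.69 and 8.76 in P3 and 9.68, 9.40, 10.27 and 9.93 in P3r2. The P3 arrays were below all fed and P2 arrays, while P3r2 2 lay as low as P3 1. Serpina11 fell by 0.97 ± 0.21 in P3 against fed (limma adjusted p = 0.0037) and by 1.10 ± 0.21 against P2 (adjusted p = 0.0014).

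The signals of 4 plasma serpins passed no test in any comparison: Serpina1, Serpina3n, Serpind1 and Serping1. Serpina1, alpha-1-antitrypsin, the inhibitor of neutrophil elastase, read between 12.68 and 13.06 in all 16 arrays. Its P3 difference from fed was -0.01 ± 0.09 (95% interval -0.19 to 0.18). After quantile normalization it was -0.27 and was called (limma adjusted p = 0.01). Serpina3n, a rodent relative of alpha-1-antichymotrypsin, was at 12.65, 12.87, 12.74 and 11.82 in P3 beside 12.55, 12.21, 12.52 and 12.60 in fed. Its P3 difference was 0.05 ± 0.19 (95% interval -0.35 to 0.45), with P3 4 the lowest of the 16 arrays. Serping1, the C1 inhibitor, which controls the first complement proteases and plasma kallikrein, differed by -0.26 ± 0.18 (95% interval -0.65 to 0.13).

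The P3 animals were not alike in their plasma serpins. The median SD of a plasma serpin was 0.26 in fed livers, 0.19 in P2, 0.55 in P3 and 0.12 in P3r2 arrays, and 10 of 12 plasma serpins varied most in P3 (83.3%), beside 38.0% of the brighter rows. P3 3 was the lowest P3 array in 9 of the 12, beside 43.1% of the brighter rows. It was the lowest of all 16 arrays in the same count of 9, beside 1451 of the 9442 brighter rows. Against the fed mean, the median over the plasma serpins was -0.53 in P3 1, -0.50 in P3 2, -1.17 in P3 3 and -1.33 in P3 4. P3 3 is also 1 of the 3 arrays of narrow spread, and the part of this in the serpin values was not tested beyond leaving the array out. Without P3 3 all 6 plasma serpins that fell in P3 were still called.

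**Figure D3:**
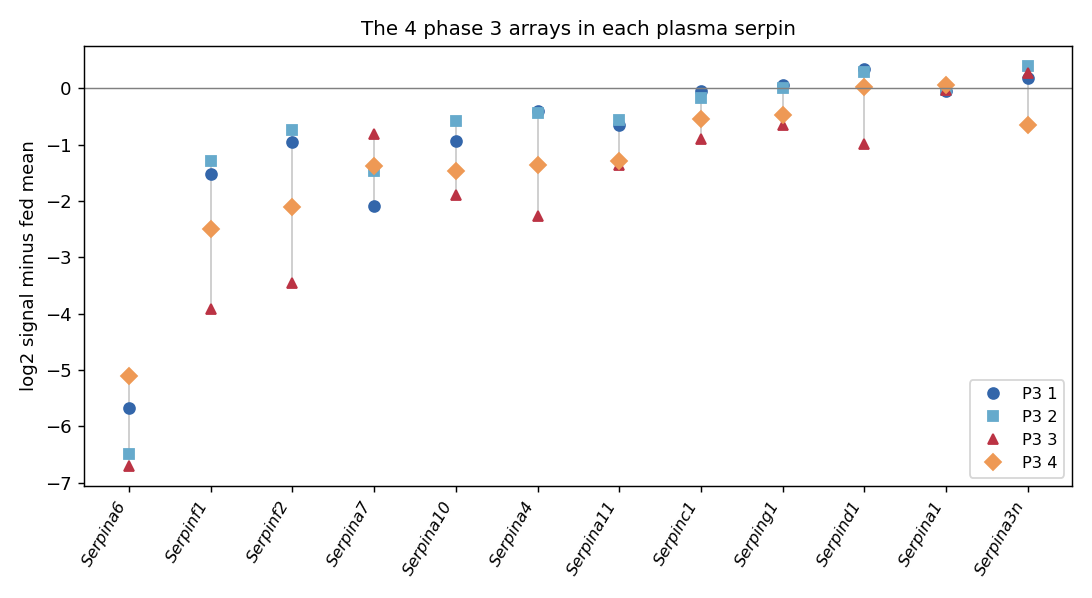
Log2 signal of each of the 4 P3 arrays minus the fed mean (y axis) for the 12 plasma serpins (x axis, in order of their mean change). P3 3, drawn as red triangles, is the lowest P3 array for 9 of the 12 genes, and for Serpina6 all 4 arrays lie more than 5 units below the fed mean.

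Of the 19 other serpins, the 4 with brighter signals are described first. Serpinh1 (transcript cluster 7054868), the collagen chaperone, read 7.87, 7.36, 8.13 and 8.51 in fed livers, 7.20, 7.46, 7.42 and 7.53 in P2, 6.32, 5.98, 5.90 and 7.65 in P3 and 7.90, 7.64, 8.46 and 7.90 in P3r2. P3 4 stood inside the fed range and the other P3 arrays were below every array of the other groups. Serpinh1 fell by 1.51 ± 0.33 in P3 against fed (limma adjusted p = 0.0032). Against P2 its difference was -0.94 ± 0.33 (adjusted p = 0.051), which was called without P3 4 (-1.34, adjusted p = 0.0012), after quantile normalization (-1.17, 0.0049) and over the brighter rows (0.027). Collagen genes were high in the same animal: Col1a2 read 9.96 in P3 4 and 6.81 to 7.0 in the other P3 arrays, and Col3a1 read 9.19 and 6.94, 6.43 and 5.75. Of 9 measured markers of stellate cells and fibroblasts, 1 rose in P3 (Dcn, 3.80 ± 0.39, limma adjusted p = 4.4e-06) and 3 fell, and the list's array means ranged from 6.47 to 7.29 in fed and from 6.57 to 8.03 in P3. Their part in the Serpinh1 values was not tested.

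Serpinb9 (transcript cluster 7163946) guards cells against granzyme B, a protease of killer lymphocytes. Its signal was 6.58, 5.96, 7.09 and 7.15 in fed livers, 6.40, 7.25, 6.90 and 6.78 in P2, 5.68, 5.77, 4.60 and 5.90 in P3 and 6.99, 6.83, 6.89 and 6.58 in P3r2. All P3 arrays were below all others. The fall was 1.21 ± 0.29 log2 units against fed (log2 change -1.21, limma adjusted p = 0.0071) and 1.35 ± 0.29 against P2 (-1.35, adjusted p = 0.0032). Of the 4 measured lymphocyte markers, 0 were called in P3 against fed, where 11.3% of all rows were higher and 8.06% lower. Their array means ranged from 3.94 to 4.52 in fed and from 3.56 to 3.96 in P3. Cd3d (2.87 to 3.48 over the 16 arrays) and Ms4a1 (2.16 to 2.88) lay under the median row signal of 4.39. Signals this low may be background, so a change of these markers may not be seen. The part of lymphocyte numbers in the Serpinb9 values was not tested.

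Serpinb6a was the serpin that rose in P3. It is an intracellular inhibitor, and it read 7.05, 6.25, 7.22 and 7.17 in fed livers, 7.52, 7.85, 7.16 and 7.99 in P2, 7.45, 7.29, 8.26 and 8.47 in P3 and 7.32, 7.28, 7.55 and 7.15 in P3r2. All P3 arrays were above the fed arrays, by little in P3 1 and P3 2. The difference of 0.95 ± 0.27 (limma adjusted p = 0.021) was not called without fed 2 (0.72, adjusted p = 0.071), P3 3 (0.82, 0.068) or P3 4 (0.75, 0.082), in a fit of the 2 groups alone (0.084) or without the 3 arrays of narrow spread (0.59, 0.15). Serpina3l, another Serpina3 relative of antichymotrypsin, read 8.13, 7.55, 8.10 and 8.24 in fed, 8.52, 8.44, 8.18 and 8.14 in P2 and 7.90, 7.98, 6.20 and 6.28 in P3. Here P3 3 and P3 4 lay far below the rest, and P3 1 and P3 2 within the fed range. It fell by 1.23 ± 0.34 from P2 to P3 (limma adjusted p = 0.015), a call lost without P3 4 (-0.96, adjusted p = 0.057) and in a fit of the 2 groups alone (adjusted p = 0.08). Against fed the difference of -0.92 ± 0.34 was not called (adjusted p = 0.073), but was called without P3 1 (-1.19, adjusted p = 0.019) or P3 2 (-1.21, adjusted p = 0.012), after quantile normalization (-1.02, 0.028) and over the brighter rows (0.039).

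**Figure D4:**
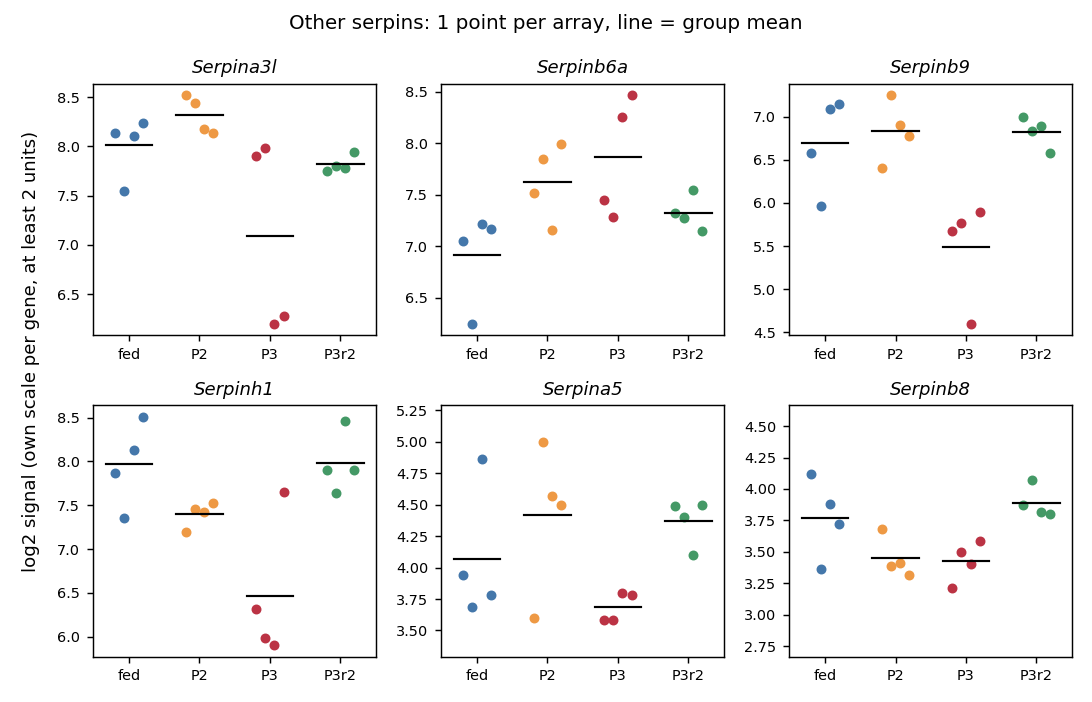
Log2 signal (y axis, own scale for each gene, at least 2 units) of 6 other serpins in the 4 groups (x axis), 1 point per array with a line at the group mean. Serpinb9 has all its P3 points below every other point, and Serpinh1 has 3 P3 points at 5.90 to 6.32 and 1 at 7.65.

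The 15 dimmer serpins gave signals of 1.74 to 5.0, where the median row had 4.39, and no difference among them exceeded 0.73 log2 units in size. They were Serpina5, Serpina16, Serpinb2, Serpinb3, Serpinb6b, Serpinb6el1, Serpinb7, Serpinb8, Serpinb10, Serpinb11, Serpinb12, Serpinb13, Serpine3, Serpini1 and Serpini2. Serpini1, neuroserpin, is mainly a serpin of neurons, and Serpinb2 is plasminogen activator inhibitor 2 of macrophages and other cells. In P3 against fed these rows spanned -0.39 to 0.21. A signal this low may be background, so that a change of the gene may not be seen. Serpina5, the protein C inhibitor, read 3.58, 3.58, 3.80 and 3.78 in P3 and 4.49, 4.40, 4.10 and 4.50 in P3r2, without overlap, and the difference of 0.69 ± 0.27 was not called (limma adjusted p = 0.097). It was called in a fit of these 2 groups alone (adjusted p = 0.0041). Serpina5 in P3 against P2 (-0.73 ± 0.27, adjusted p = 0.063) was called without P2 1 (-1.01, adjusted p = 0.0062). Serpinb8, an intracellular serpin, was -0.34 ± 0.15 in P3 against fed (adjusted p = 0.13) and -0.32 ± 0.15 in P2 (adjusted p = 0.16), and was called without fed 2 in both (-0.48, adjusted p = 0.017, and -0.46, adjusted p = 0.034). Serpinb2 in P2 against fed (0.31 ± 0.12, adjusted p = 0.11) was called with array weights (0.39, adjusted p = 0.045).

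After 2 days of food the serpins stood near fed levels. Against P3, 11 serpins rose in P3r2 and 0 fell, where 10.5% of all rows rose and 7.93% fell, and 19.1% and 14.0% of the brighter rows. The 11 were 8 plasma serpins with Serpinb8, Serpinb9 and Serpinh1. The plasma serpins had a median of 1.03, the others of -0.04 and all rows of -0.03. Among the brighter rows, where all 12 plasma serpins lie, the 4 other serpins also had a median of 1.03. The median over all brighter rows was -0.01. Serpina6 rose by 5.49 ± 0.33 (44.9-fold, limma adjusted p = 1.4e-08), Serpinf1 by 2.36 ± 0.39 (5.12-fold, adjusted p = 4.1e-04) and Serpinf2 by 1.79 ± 0.42 (3.46-fold, adjusted p = 0.0059). Smaller rises were those of Serpina10 (1.43 ± 0.30, adjusted p = 0.0025), Serpina4 (1.33 ± 0.30, 0.0049), Serpinb9 (1.34 ± 0.29, 0.0038) and Serpinh1 (1.52 ± 0.33, 0.0034). For Serpinh1 the groups overlapped, since P3 4 at 7.65 exceeded P3r2 2 at 7.64.

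The remaining 4 rises against P3 leaned on single arrays, and those of Serpina11 (adjusted p = 0.07) and Serpinc1 (0.077) were not called in a fit of the 2 groups alone. Serpina7 (1.71 ± 0.50, limma adjusted p = 0.023) was not called without P3 1 (1.50, 0.073), P3r2 2 (1.47, 0.081) or P3r2 3 (1.57, 0.071). Serpina11 (0.74 ± 0.21, adjusted p = 0.023) was not called without P3 3 (0.60, 0.078), P3 4 (0.63, 0.081), P3r2 3 (0.59, 0.087) or P3r2 4 (0.70, 0.06), nor after quantile normalization (0.51, 0.083). Serpinc1 (0.52 ± 0.15, adjusted p = 0.023) was not called without P3 3 (0.36, 0.064), P3 4 (0.48, 0.069), P3r2 1 (0.52, 0.054) or P3r2 3 (0.49, 0.065). Serpinb8 (0.46 ± 0.15, adjusted p = 0.037) stayed called in only 1 of 8 such fits, that without P3 4. Without any other single array it was not called, with adjusted p of 0.052 to 0.12. Without P3r2 3 the count of serpins that rose was 7, of which 5 were plasma serpins. Serpina3n differed by -0.40 ± 0.19 (adjusted p = 0.18) and was called lower in P3r2 without P3 4 (-0.63, adjusted p = 0.0047), while Serpina3l (0.73 ± 0.34, adjusted p = 0.17) was called higher without P3 1 (1.00, 0.049) or P3 2 (1.03, 0.034).

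Against fed livers, 0 of the 31 serpins were called in P3r2, where 2.21% of all rows were higher and 0.514% lower, and 4.16% and 0.900% of the brighter rows. After quantile normalization the rows higher and lower numbered 209 and 183, beside 417 and 97 on the deposited values. In limma, 0 serpins had an unadjusted p below 0.05 and the lowest adjusted p was 0.44. Differences ranged from -0.50 to 0.28 over the plasma serpins and from -0.19 to 0.40 over the others, with medians of 0.01 for both and 0.02 for all rows. The lowest was that of Serpina6 (-0.50 ± 0.33, 95% interval -1.20 to 0.20), whose P3r2 arrays lay at the level of fed 2 and below the other fed arrays. A missed threshold does not show that the groups are equal, and the interval of Serpina6 reaches down to -1.20.

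In RefSeq gene order, 18 Serpina genes follow each other with no other protein-coding gene among them, and 9 of these were measured here. Serpina10 and Serpina6 stand side by side, and in P2 the first rose by 1.01 ± 0.30 while the second changed by -1.35 ± 0.33. Serpina16, next to Serpina6, was dim and differed by 0.21 ± 0.16 in P3. Serpina1 (-0.01 ± 0.09 in P3) is followed by Serpina11 (-0.97 ± 0.21), and Serpina3l (-0.92 ± 0.34) by Serpina3n (0.05 ± 0.19). The differences between such neighbours were not tested.

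**Figure D5:**
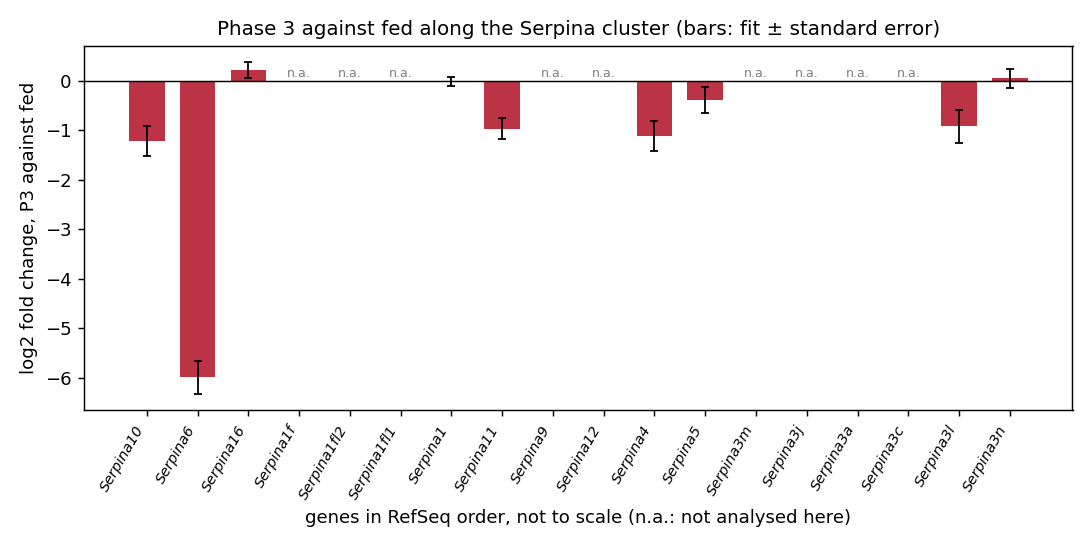
Log2 fold change in P3 against fed (y axis, bars from 0 with the standard error, 4 arrays in each group) for the 9 measured genes among 18 consecutive Serpina genes in RefSeq order (x axis, not to scale; genes without a row of their own are marked as not analysed here). Serpina6 reaches -5.99 between Serpina10 at -1.21 and Serpina16 at 0.21.

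Genes that work with the plasma serpins or their hormones are read against the background of P3 against fed: 8.06% of all rows fell and 11.3% rose, and 14.5% and 20.8% of the brighter rows, with medians of 0.03 and 0.07. Of 15 measured target proteases and cofactors, 8 fell and 0 rose against fed, with a median of -0.67. In P2 against fed 0 were called, where 6.13% of all rows were higher and 6.58% lower. C1s, which Serping1 blocks, fell by 2.30 ± 0.42 (limma adjusted p = 7.8e-04), and Klkb1, plasma prekallikrein, by 1.76 ± 0.53 (adjusted p = 0.027), while Serping1 itself was not called. Hgfac, the activator of hepatocyte growth factor, fell by 1.60 ± 0.34 (adjusted p = 0.0028), and C1r by 1.40 ± 0.28 (adjusted p = 0.0017). The smaller falls were those of Masp1, Plg, Masp2 and F2, the last being prothrombin (-0.63 ± 0.15, adjusted p = 0.0077). Against P3, 7 of the 15 rose in P3r2, beside 10.5% of all rows and 19.1% of the brighter rows. In P3r2 against fed 0 were called, where 2.21% of all rows were higher and 0.514% lower, so this count is near the background.

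Of 7 measured genes listed for serpin complex clearance, 6 fell in P3 and 0 rose, beside 14.5% and 20.8% of the brighter rows. The list's median was -1.08. Those that fell were Lrp1, Lrp2, Lrpap1, Sdc1, Asgr1 and Asgr2, and not all of them are receptors for serpin complexes. Lrp1, the main receptor for such complexes on hepatocytes, read 10.19, 10.27, 9.73 and 10.57 in fed livers, 9.26, 8.75, 9.22 and 8.75 in P2, 7.47, 7.79, 7.15 and 7.21 in P3 and 9.67, 9.62, 9.45 and 9.06 in P3r2. All P2 arrays were below the fed arrays and all P3 arrays were below the P2 arrays. Lrp1 fell by 1.20 ± 0.20 in P2 (limma adjusted p = 0.0021) and by 2.78 ± 0.20 in P3 (adjusted p = 1.4e-07). The other plasma protease inhibitors were divided, with 6 of 18 lower and 3 higher in P3 and a median of -0.13. A2m, the broad inhibitor alpha-2-macroglobulin, fell by 2.14 ± 0.42 (adjusted p = 0.0014), and Spink1, an inhibitor of trypsin, rose by 2.03 ± 0.24 (adjusted p = 1.9e-05).

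Genes that handle the hormones carried by Serpina6 and Serpina7, or respond to them, changed in both directions. Of 13 measured, 3 rose and 5 fell in P3 against fed, with a median of -0.19, beside 20.8% and 14.5% of the brighter rows. Dio1, the deiodinase that activates thyroxine, fell 32.0-fold (limma adjusted p = 2.6e-08), and Dio3, which inactivates thyroid hormone, rose by 2.17 ± 0.33 (adjusted p = 1.7e-04). Ttr, transthyretin, another thyroxine carrier, fell by 0.80 ± 0.10 (adjusted p = 2.4e-05). Thrsp, a thyroid hormone-responsive gene, fell by 4.51 ± 0.14 (22.8-fold, adjusted p = 8.4e-12). Thrsp was also lower than fed in P2 (-1.64 ± 0.14, limma adjusted p = 9.2e-06) and above fed in P3r2 (0.79 ± 0.14, adjusted p = 0.0054). The part of thyroid hormone in the Thrsp values was not tested. On the glucocorticoid side, Hsd11b1, which regenerates active glucocorticoid, fell by 1.35 ± 0.19 (adjusted p = 7.0e-05), Akr1d1, which clears steroids, fell by 1.91 ± 0.21 (adjusted p = 6.7e-06), and the glucocorticoid-induced genes Tsc22d3 (1.89 ± 0.37, adjusted p = 0.0016) and Fkbp5 (1.77 ± 0.39, adjusted p = 0.0034) rose. In P2, when Serpina7 was high, Dio1 was not called. Its arrays read 9.55, 9.86, 9.71 and 9.37 in P2 and 9.85, 9.12, 9.90 and 10.12 in fed.

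Regulators known to act on hepatocyte genes were also read in P3 against fed. Of 12 transcription factors measured, 4 rose and 2 fell, with a median of 0.24, where 20.8% of the brighter rows rose and 14.5% fell, so the counts are not far from the background. Cebpb rose by 2.12 ± 0.14 (limma adjusted p = 3.6e-08) and Stat3 by 1.06 ± 0.23 (adjusted p = 0.0034), while Cebpa fell by 0.92 ± 0.21 (adjusted p = 0.0044). Hnf4a, a master factor of hepatocytes, was at 0.00 ± 0.17 and was not called. In the growth hormone list, 5 of 11 genes fell and 1 rose (median -0.84), with Ghr, the receptor, lower by 3.27 log2 units (-3.27 ± 0.25, adjusted p = 2.2e-07). Of 13 acute phase proteins, 2 rose and 3 fell (median -0.03), near the same background, with Hamp, hepcidin, at 2.01 ± 0.61 (adjusted p = 0.03) and C3, the complement component, at -1.65 ± 0.37 (adjusted p = 0.0039). These lists show the setting of the serpin values, and no relation between them and the serpins was tested.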

How the data were processed

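Values are the deposited log2 signals per transcript cluster of Rat Exon 1.0 ST arrays, which the authors computed in GCOS 1.4 and Affymetrix Expression Console (version 1.1), per the submitters' processing notes and design text. That the scale is log2 was inferred from its range, 0.84 to 13.6. For summarisation, background correction and genome build, nothing was stated in the labels read here. No further scaling was applied. Symbols came from the array annotation, and all 31 equalled those of RefSeq for GRCr8. A row with several symbols was not used. Of 19418 rows, 533 without annotation were left out and 18885 were tested with limma 3.58.1 in R 4.3.3: a mean per group over all 16 arrays, two-sided moderated tests, Benjamini-Hochberg adjustment over all rows. The steps were tested on simulated data. Every serpin is named, with full statistics for those called. Of each related list some called genes are named, and these are not always the ones of greatest change. For example, Igfals of the growth hormone list (-4.58 in P3 against fed) differed more than Ghr (-3.27). The members and lists were chosen with earlier results of these data known. Lists received no test. Alternatives covered normalization, centring, variance moderation, array weights, row choice, filter, threshold, replicate block and left-out arrays. Motifs were searched in RefSeq promoters. Figures were drawn with matplotlib 3.10.9. The number of arrays limits the precision, and p-values set a difference against the spread between these animals. The fit takes that spread as 1 value per row, shared by all 4 groups. Standard errors and intervals rest on it also where the groups differ in spread, as in the plasma serpins.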

Additional observations from a re-analysis of the deposited data

Results flagged for a closer look

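In 9 of 124 groups of 4 arrays (31 serpins, 4 groups), 1 array stood far from the other 3 by Dixon's test, which chance alone does in about 1 group in 20. Array fed 2 was the low one in 3 plasma serpins: Serpina10 read 8.53 there and 9.41 to 9.57 in the other fed arrays, Serpina11 9.62 against 10.14 to 10.24, and Serpinf1 12.19 against 12.56 to 12.61. Serpina3n read 12.32 in P2 4 and 12.69 to 12.74 in the other P2 arrays. Both fed 2 and P2 4 are among the 3 arrays of narrow spread, and the part of this was not tested. The other 5 were dim serpins: Serpina16 in P3 1 (2.17 against 2.42 to 2.46), Serpinb11 in fed 3 (2.26 against 1.84 to 1.90) and in P3r2 4 (1.99 against 1.82 to 1.83), Serpinb2 in P2 2 (2.56 against 2.06 to 2.14) and Serpinb6el1 in fed 3 (2.86 against 2.20 to 2.30).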

How the results depend on the processing

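Of 33 called differences of single serpins, 22 were called under every alternative run, and of 122 not called, 12 were called under some; 0 changed direction while called. In P3 against fed, the 8 serpins that fell (6 of them plasma serpins) became 12 (9) after quantile normalization, 7 (5) in a fit of the 2 groups alone and at a threshold of 0.01, and 8 to 11 (6 to 8) with single arrays left out. In P3 against P2, the 10 that fell (8) became 11 (8) after quantile normalization, 7 (6) in a fit of the 2 groups alone and at 0.01, and 9 to 11 (7 to 8) with single arrays left out. In P2 against fed, the 2 plasma serpins that rose became 1 with array weights, at a threshold of 0.01, under the replicate block and without the 3 arrays of narrow spread, and 1 to 2 with single arrays left out. The 1 that fell became 0 at 0.01 and 0 to 1 with single arrays left out, and over all serpins 2 with array weights and 0 to 2 with single arrays left out. In P3 against fed, the 1 serpin that rose became 0 in a fit of the 2 groups alone, at 0.01 and without the 3 arrays of narrow spread, and 0 to 1 with single arrays left out. In P3r2 against P3, the 11 that rose became 7 (5 of them plasma serpins) at 0.01 and 7 to 11 (5 to 8) with single arrays left out, and 0 to 1 were lower. The median of the other serpins in P2, 0.13 as reported, was 0.04 after quantile normalization, 0.06 with array weights, 0.22 over the brighter rows and 0.00 without the 3 arrays, and 0.06 to 0.15 with single arrays left out. Over the brighter rows it was -1.06 in P3 against fed, -1.09 in P3 against P2 and 1.03 in P3r2 against P3. Over all 19 other serpins the median in P3r2 against P3, -0.04 as reported, was -0.04 to 0.02 with single arrays left out. The brighter rows hold 4 of the 19; for the other changes the cause was not tested. Same-numbered arrays of different groups deviated from their means with correlations of -0.40 to 0.26, and 3 of 16 arrays correlated best with their own number. These values gave no sign of a pairing by number but cannot exclude one. With the number as a replicate block, Serpina10 in P2 (1.01, limma adjusted p = 0.059) and Serpinb8 in P3r2 against P3 (0.46, 0.066) were no longer called and Serpinh1 in P3 against P2 (-0.94, 0.031) was. Signals near the bottom and top of the scale limit what the arrays can show.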

Other observations

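A row of the table carries the symbols Serpina3c and Serpina3l together and could not be given to either gene. Its signal was 12.89, 12.39, 12.82 and 12.68 in fed, 12.92, 12.83, 12.53 and 12.96 in P2, 12.12, 12.45, 9.04 and 10.27 in P3 and 12.40, 12.32, 12.31 and 12.43 in P3r2, with P3 3 and P3 4 lowest as in the row of Serpina3l alone. A second row, shared by Serpina12 and Serpina11, read 4.26 to 5.02 over the 16 arrays.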
